A study of Drosophila melanogaster with 12 samples.

Results

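The 9 genes described here encode enzymes that build the main phospholipids of fly membranes: eas, CG2201, Pect, Cct1, Cct2, bbc, CG33116, CG7149 and Pis. They were taken by symbol from tables of 14540 to 14542 gene rows, and each of the 9 had a row that the authors tested in every table. The RNA came from Drosophila S2 cells, a line of macrophage-like embryonic blood cells labelled wild type, after 4 days with double-stranded RNA (dsRNA). The control group received dsRNA to GFP, which has no target in these cells. By the labels, a second group received dsRNA to Sin3A, the scaffold of a histone deacetylase complex, another received dsRNA to Sam-S, which makes the methyl donor S-adenosylmethionine, and the last received both. Every group had 3 samples, which the labels say were combined, so each gene has 1 FPKM per group (fragments per kilobase of transcript, scaled to all mapped fragments) and no spread between samples. The groups labelled SIN3 knockdown and SIN3 plus SAM-S knockdown are called SIN3-labelled and double-labelled here, because the level of Sin3A did not bear their labels out.

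The targeted Sam-S transcript was at 62.0 FPKM after SAM-S knockdown, against 242 FPKM with GFP dsRNA, and at 91.2 against 243 FPKM in double-labelled samples. In SIN3-labelled samples Sam-S was higher than its control, at 484 against 239.9 FPKM. Sin3A was at 61.7 FPKM in SIN3-labelled samples, with 67.9 FPKM in their control, and at 64.7 against 68.5 FPKM in double-labelled ones. Neither Sin3A value was called as changed, at q = 0.931 and 0.930 in the authors' deposited tables, so each direction given for those groups rests on the label. In the control the 8 hemocyte markers ranged from 0.779 FPKM for Hml to 24886 FPKM for Nplp2. The 4 muscle markers summed to 1.09 FPKM and 4 fat body markers to 0.262 FPKM.

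Phosphatidylethanolamine and phosphatidylcholine are made by parallel routes of 3 steps, together called the Kennedy pathway. A kinase phosphorylates ethanolamine or choline, a cytidyltransferase activates the product with CTP, and a phosphotransferase joins the activated head group to diacylglycerol. Phosphatidylethanolamine is the most abundant phospholipid of fly membranes and, in fly cells, restrains the processing of the lipid regulator SREBP, a role that sterols have in mammals. In yeast and mammals phosphatidylethanolamine can also be methylated to phosphatidylcholine with S-adenosylmethionine. Phosphatidylinositol is made apart from these routes, from CDP-diacylglycerol and inositol.

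In the control cells Pect and Cct1, genes of the middle step, were the most abundant of the 9. Pect stood at 323 FPKM, above 96.4% of tested rows, and Cct1 at 255 FPKM, above 95.3%. The phosphotransferase gene bbc followed at 209 FPKM. After a 3.96-fold gap came Pis at 52.8 FPKM, CG33116 at 50.6 FPKM and CG2201 at 43.7 FPKM. The lowest were eas at 27.9 FPKM, Cct2 at 12.3 FPKM and CG7149 at 10.5 FPKM. The values of Pis and CG33116 were within 1.04-fold of each other and those of Cct2 and CG7149 within 1.17-fold, and without a spread between samples it cannot be said that these neighbours differed. The control values of a gene in the 3 tables differed by 0.922% to 2.06%, so each knockdown is set against the control of its own table. The largest difference was that of CG33116, whose row also holds CG31697 in the SAM-S and double tables. The next largest was 1.33%, for CG7149.

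**Figure D1:**
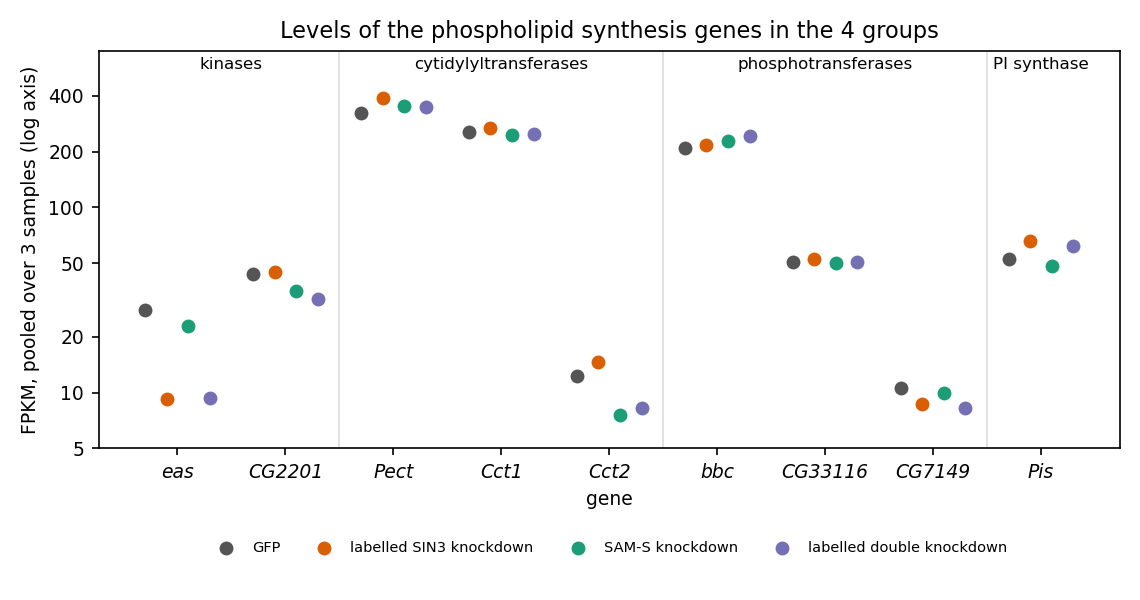
Level of each gene (log axis, FPKM) in the 4 groups, 1 pooled value per group, with GFP from the SIN3 table. The eas points of the SIN3-labelled and double-labelled groups lie at 9.30 and 9.39 FPKM, below 27.9 FPKM in the control and 22.9 FPKM after SAM-S knockdown.

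Of the 9 genes, eas was called in SIN3-labelled and double-labelled samples, and the other 8 were not called in any comparison. A gene was called when its q in the authors' deposited table was under 0.05. In the SAM-S and double tables this q equals a Benjamini-Hochberg adjustment over the tested rows within 5.27e-07, and in the SIN3 table it departs from one by up to 0.0427, for a reason not given in the sources used here. In SIN3-labelled samples 1 of 9 fell and none rose, where 7.68% of all tested genes were called, 4.35% as lower and 3.34% as higher. In double-labelled samples 1 of 9 fell and none rose, where 9.62% were called, 6.14% as lower and 3.48% as higher. A count of 1 in 9 thus lies near the called share of all tested genes in both comparisons. After SAM-S knockdown none of the 9 was called by Cuffdiff, the authors' test, where 0.163% of all tested genes were called, 0.0754% as lower and 0.0880% as higher. In that comparison 1 of the 9 had an unadjusted p under 0.05. The 9 genes had a median log2 ratio to GFP of 0.06 in the SIN3 comparison, -0.09 in the SAM-S comparison and -0.06 in the double comparison, beside -0.01, -0.02 and -0.01 over all tested genes. At an unadjusted p under 0.05 the counts of the 9 were 1, 1 and 3, with 18.0%, 2.80% and 20.5% of all tested genes.

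The called gene acts at the first step of the ethanolamine route. This gene, eas (easily shocked; X chromosome, 16172360 to 16179651 on build dm3, plus strand), encodes ethanolamine kinase, and its mutants are known for seizures after mechanical shock. Its level was 27.9 FPKM with GFP dsRNA and 9.30 FPKM in SIN3-labelled samples, 28.1 and 22.9 FPKM in the SAM-S comparison, and 28.2 and 9.39 FPKM in the double comparison. The values of the SIN3-labelled and double-labelled groups were thus close to each other and about 3.00-fold below the control, while that of the SAM-S group was 1.22-fold below it.

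The log2 ratio of eas to GFP was -1.58 ± 0.23 (approximate SE) in SIN3-labelled samples, and the authors' deposited table gave it q = 0.00172. In double-labelled samples it was -1.59 ± 0.23, with q = 0.00157 according to the authors' deposited table. Both q are the smallest that their tables hold, since p was at its lower limit of 5e-05. After SAM-S knockdown the ratio was -0.29 ± 0.20 and was not called, at q = 0.9999 in the authors' deposited table. These SE were derived from the deposited statistic, and because the samples of a group were combined it cannot be told whether they measure the spread between samples.

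Among the 353 genes called as falling in SIN3-labelled samples, the fall of eas was the 57th deepest, and it ranked 78 among the 501 called falls of the double comparison. Its absolute log2 ratio exceeded those of 98.2% and 98.0% of tested genes in these tables. With a stricter normal p taken from the statistic, 37 of 8123 and 55 of 8158 genes stayed under an adjusted 0.05, and eas was among them in both tables.

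The other kinase gene, CG2201 (chromosome 2L, 21614232 to 21623627, minus strand), is annotated by homology as a choline kinase. Its FPKM was 44.6 in SIN3-labelled samples beside a control of 43.7, which is a log2 ratio of 0.03. After SAM-S knockdown it was at 35.3 against 43.9 FPKM (-0.31), and in double-labelled samples at 31.9 against 44.1 FPKM (-0.47). The lowest of its levels was that of the double group, at which the authors' deposited table gave p = 0.0149 and q = 0.109, so it was not called. The control held 1.57 times as much CG2201 as eas in FPKM. That ratio was 4.80 in SIN3-labelled samples, 1.54 after SAM-S knockdown and 3.39 in double-labelled samples. The eas share of the summed FPKM of both kinases was 39.0% in the control, 17.2% and 22.8% in the SIN3-labelled and double-labelled groups, and 39.4% after SAM-S knockdown.

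**Figure D2:**
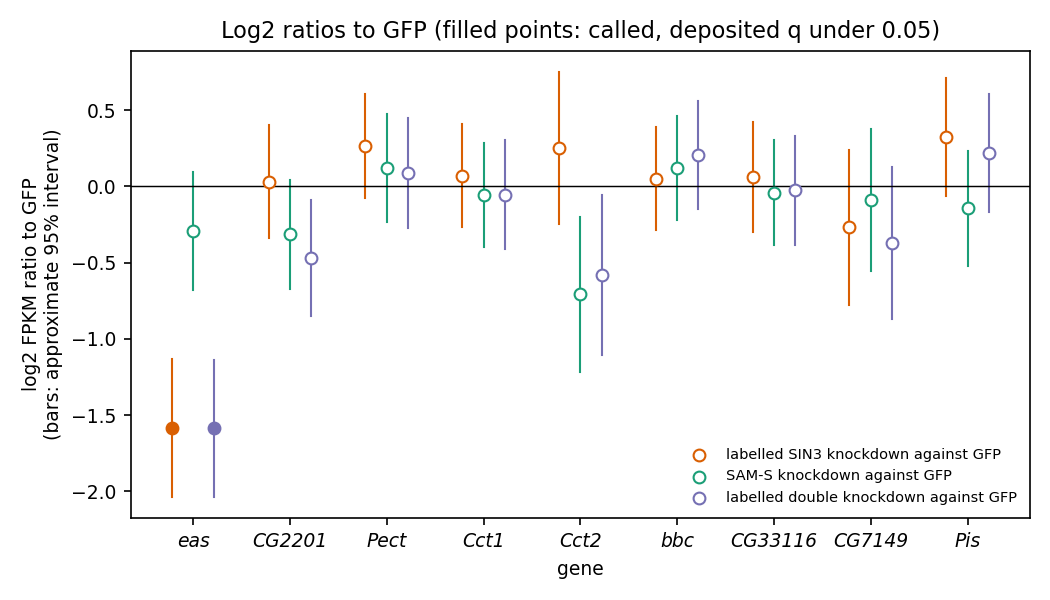
Log2 ratio of each gene to GFP in the 3 comparisons, with bars for the approximate 95% interval and filled points for called genes. The eas intervals reach from -2.03 to -1.13 in SIN3-labelled samples and from -2.03 to -1.14 in double-labelled ones, and every other point is open.

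The cytidyltransferase step was represented by Pect for phosphoethanolamine and by the paralogues Cct1 and Cct2 for phosphocholine. Pect (chromosome 2L, 13203762 to 13211814, plus strand) was at 388 FPKM in SIN3-labelled samples beside 323 FPKM with GFP dsRNA (log2 ratio 0.26 ± 0.17). It stood at 325 and 353 FPKM in the SAM-S comparison (0.12) and at 327 and 347 FPKM in the double comparison (0.09). All knockdown values of Pect were above their controls by at most 1.201-fold, and none was called. Its row shares a locus with CG15482 on the opposite strand, and these genes overlap by 56 bases in the current annotation. CG15482 had 3.01 and 3.57 FPKM, 3.03 and 4.34 FPKM, and 3.04 and 6.36 FPKM in the SIN3, SAM-S and double comparisons, and was not called. Pect and eas, which act in sequence, differed in level 11.6-fold in the control and 41.7-fold, 15.4-fold and 37.0-fold in the SIN3-labelled, SAM-S and double-labelled groups.

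Cct1 (chromosome 3L, 1546092 to 1553236, plus strand; Pcyt1 in the current annotation) stood at 255 and 267 FPKM in the SIN3 comparison. After SAM-S knockdown it was at 245 against 255 FPKM, and in the double comparison at 247 against 257 FPKM. Its log2 ratios lay between -0.06 and 0.07. Cct2 (chromosome 3L, 1553493 to 1555315, plus strand; now Pcyt2) lies just downstream on the same strand. These are the lipid enzymes and not the chaperonin subunits that now carry the symbols CCT1 and CCT2.

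The level of Cct2 was 14.7 FPKM in SIN3-labelled samples beside a control of 12.3 FPKM (0.25). It stood at 7.57 against 12.4 FPKM after SAM-S knockdown (-0.71) and at 8.31 against 12.4 FPKM in double-labelled samples (-0.58). The lower values were thus those of the groups that received dsRNA to Sam-S, and the order differed from that of eas. Neither was called: the authors' deposited table gave p = 0.00655 with q = 0.9999 after SAM-S knockdown. For the double comparison the authors' deposited table gave p = 0.026 with q = 0.158. The absolute ratio of Cct2 after SAM-S knockdown exceeded those of 97.3% of tested genes in that table. Cct1 was 20.7-fold more abundant than Cct2 in the control and 18.2-fold, 32.4-fold and 29.8-fold more abundant in the SIN3-labelled, SAM-S and double-labelled groups. In the current annotation the Cct1 and Cct2 genes overlap by 12 bases, whereas the loci of their deposited rows do not overlap.

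The last step had 3 phosphotransferase genes, whose products are annotated as members of the choline and ethanolamine phosphotransferase family. The gene bbc (bb in a boxcar; chromosome 2R, 9374139 to 9382367, minus strand) stood at 209 and 216 FPKM in the SIN3 comparison, 210.2 and 229 FPKM in the SAM-S comparison, and 212 and 244 FPKM in the double comparison. Its log2 ratios were 0.05, 0.12 and 0.21, each with an approximate SE of 0.17 to 0.18, and none was called. Each knockdown value of bbc was above its control, by at most 1.15-fold.

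CG33116 (chromosome 2L, 19533473 to 19537365, plus strand) stood at 50.6 and 52.7 FPKM in the SIN3 comparison, at 51.3 and 49.8 FPKM in the SAM-S comparison, and at 51.6 and 50.7 FPKM in the double comparison. Across the 4 groups its levels spanned 1.06-fold, the narrowest range of the 9 genes in these pooled values. In the SAM-S and double tables its row is merged with the nested gene CG31697, which stood at 0.712 and 1.37 FPKM in the SIN3 table. The range of CG33116 thus mixes values with and without CG31697, and its rank among the 9 genes may depend on this. CG7149 (chromosome 2L, 7786157 to 7790557, minus strand) was the least abundant in the control, at 10.5 and 8.73 FPKM, 10.6 and 9.97 FPKM, and 10.7 and 8.26 FPKM in the SIN3, SAM-S and double comparisons. Its log2 ratios of -0.27, -0.09 and -0.37 had approximate SE of 0.24 to 0.26, and none was called. The summed FPKM of the 3 phosphotransferase genes was 270.3 in the control, 278 and 303 in the SIN3-labelled and double-labelled groups, and 288 after SAM-S knockdown, with bbc giving 77.4% to 80.5% of it.

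Pis (X chromosome, 15595484 to 15597798, minus strand) encodes phosphatidylinositol synthase. It stood at 52.8 and 66.0 FPKM in the SIN3 comparison (0.32 ± 0.20), 53.1 and 48.0 FPKM in the SAM-S comparison (-0.15 ± 0.19) and 53.4 and 62.0 FPKM in the double comparison (0.22 ± 0.20). The SIN3-labelled and double-labelled groups had the higher values. None was called, and the smallest q that the authors' deposited tables held for Pis was 0.445.

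**Figure D3:**
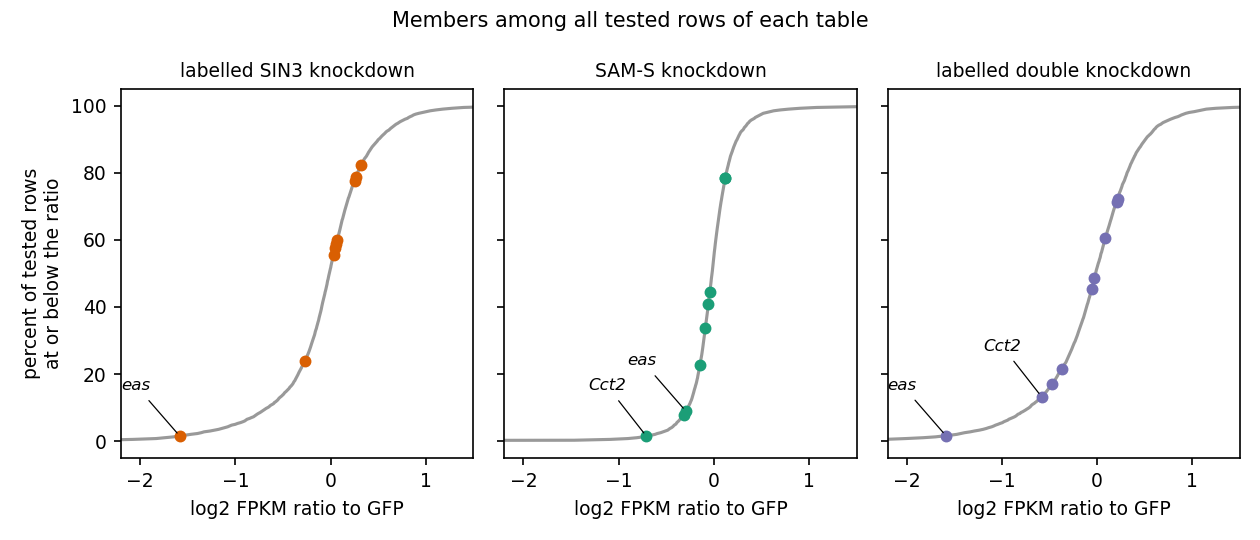
Cumulative distribution of the log2 ratio to GFP over all tested rows (grey line, percent of rows at or below the ratio) with the 9 genes as points, per comparison. The eas point lies in the lower tail at -1.58 and -1.59 in the SIN3-labelled and double-labelled groups, and Cct2 is lowest of the 9 after SAM-S knockdown, at -0.71.

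The comparisons were set against each other by an approximate test of the difference between log2 ratios, adjusted over all genes tested in both tables, which share their control. For eas the ratio in SIN3-labelled samples was below that after SAM-S knockdown by a difference of -1.29 (approximate 95% interval -1.88 to -0.70). This passed at an adjusted threshold of 0.05, as did 2.08% of all genes. The double-labelled group differed from the SAM-S group in the same direction for eas, by -1.29 (-1.89 to -0.70), and passed where 1.03% of genes did. Between the double-labelled and SIN3-labelled groups the difference for eas was -0.0025 with an interval of -0.64 to 0.63. It did not pass, where 0.199% of genes did, and the interval does not show that both groups had equal levels. The double-labelled ratio of eas lay 0.29 above the sum of its SIN3-labelled and SAM-S ratios, -1.88, and this departure was not tested.

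For the other 8 genes none of these differences passed. That of Cct2 between SIN3-labelled samples and the SAM-S group was 0.96 (0.25 to 1.67). It passed only when the variance of the shared control was left out, on an assumed equal share of control and knockdown. The corresponding difference was 0.47 (-0.07 to 1.01) for Pis and 0.34 (-0.17 to 0.86) for CG2201. For Pect, Cct1, bbc, CG33116 and CG7149 the estimates lay between -0.18 and 0.14. Departures of the double-labelled ratio from the sum of the SIN3-labelled and SAM-S ratios ran from -0.30 for Pect to 0.04 for Pis among these 8 genes.

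The rows on either side of eas were not called. Pros28.1, a proteasome subunit gene ending before eas starts, stood at 216 and 219 FPKM in the SIN3 comparison and at 218 and 266 FPKM in the double comparison. CG3560, on the other side, stood at 497 and 413 FPKM (-0.27) and at 503 and 430 FPKM (-0.23), and CG32576, at the same locus, at 91.4 and 122 FPKM (0.42) and at 92.7 and 112 FPKM (0.27). Whether these 3 genes differ from eas was not tested.

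Over 7332 rows tested in every table with at least 1 FPKM in every group, the 5 rows whose 3 log2 ratios lay nearest to those of eas were FucTC, sli, CG2003, CG43124 and CG9691. Their Euclidean distances from eas were 0.0894 to 0.162. Among them, CG2003 stood at 47.1 and 16.5 FPKM in the SIN3 comparison, 47.3 and 38.1 FPKM in the SAM-S comparison and 47.6 and 16.7 FPKM in the double comparison. The gene sli, for the secreted guidance protein Slit, had log2 ratios of -1.56, -0.38 and -1.63. With 1 FPKM added to each value CG2003 was the only one of these 5 still among the nearest 5. The likeness rests on 3 ratios that share 1 control.

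Of 8 hemocyte markers 5 fell and none rose in SIN3-labelled samples, with a median log2 ratio of -0.99, and 5 fell in double-labelled samples, with a median of -1.14. Over all tested genes 4.35% and 6.14% were called lower. At q under 0.01 the marker counts were 3 and 4. With at least 1 FPKM in control and knockdown, which leaves out Hml, 4 of 7 fell in each of these comparisons. In the SAM-S comparison the 8 markers summed to 25705 and 22688 FPKM, and none was called. There 3 had an unadjusted p under 0.05, with ratios of both signs, beside 2.80% of all tested genes. Of the 8 ratios 5 were positive, with a median of 0.01. The sums were 25549 and 11048 FPKM in the SIN3 comparison and 25855 and 10686 FPKM in the double comparison. Hml, Pxn, Sr-CI and Nplp2 were called in both, with vkg in the SIN3 and nimC1 in the double comparison, and Nplp2 made up most of these sums. Pxn, encoding peroxidasin, stood at 151 and 50.9 FPKM in the SIN3 comparison. Of the other markers, the neuron list summed to 3.37 and 5.14 FPKM in the SIN3 comparison, the muscle list to 1.09 and 1.20 FPKM, the fat body list to 0.262 and 0.124 FPKM, and the germline list to 1.86 and 1.01 FPKM. The ovarian marker tj was at 0 in the control, while Fas3 fell from 22.9 to 12.2 FPKM and, in the double comparison, from 23.1 to 9.57 FPKM. The part of these shifts in the eas result was not tested, and fewer cells of a type and less RNA per cell cannot be told apart in such samples.

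Lipid genes around these steps were described from lists. The branch that leads from phosphatidate through CDP-diacylglycerol to phosphatidylserine and cardiolipin had 6 tested genes and no Cuffdiff call in any table. At an unadjusted p under 0.05 the counts were 3, 0 and 1 when SIN3, SAM-S and double are taken in that order. Over all tested genes the shares at that p were 18.0%, 2.80% and 20.5%. All 6 had positive ratios in SIN3-labelled samples, with a median of 0.45 beside -0.01 over all tested genes, and all 6 in the double comparison, with a median of 0.30. CdsA, which makes CDP-diacylglycerol, stood at 51.6 and 76.1 FPKM in the SIN3 comparison (0.56). CG5991, the phosphatidylserine decarboxylase gene, whose enzyme makes phosphatidylethanolamine without ethanolamine, stood at 58.2 and 81.6 FPKM (0.49) and had q = 0.075 according to the authors' deposited table. CG4825, the phosphatidylserine synthase gene, stood at 53.6 and 68.9 FPKM (0.36).

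Sphingolipid genes rose in 2 of 12 cases in SIN3-labelled samples, and none fell, beside 3.34% of all tested genes called higher and 4.35% called lower. Sply, encoding the sphingosine-1-phosphate lyase that releases phosphoethanolamine, the product of the eas reaction, rose from 81.2 to 138 FPKM (0.77); the authors' deposited table gave q = 0.00172. In the double comparison Sply was at 82.0 and 110 FPKM (0.42) and was not called, and after SAM-S knockdown at 81.6 and 85.2 FPKM (0.06). The desaturase gene ifc, which converts dihydroceramide to ceramide, rose from 260.5 to 419 FPKM (0.69) in SIN3-labelled samples. In double-labelled samples ifc was the 1 gene of 12 called, rising from 264 to 394 FPKM (0.58). There 3.48% of all tested genes were called higher and 6.14% lower. After SAM-S knockdown none of the 12 was called.

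The SREBP pathway and fatty acid list had 14 tested genes. In SIN3-labelled samples 1 rose and 1 fell, beside 3.34% and 4.35% of all tested genes. S1P, the protease that begins SREBP cleavage, rose from 15.9 to 24.5 FPKM (0.62). The acyl-CoA ligase gene bgm fell from 2.90 to 1.24 FPKM (-1.23, or -0.80 with 1 FPKM added to each value). In the double comparison S1P stood at 16.1 and 22.8 FPKM (0.50) and was not called. In double-labelled samples 1 rose and 2 fell, beside 3.48% and 6.14% of all tested genes. There v(2)k05816, a fatty acid synthase gene, rose from 1.01 to 2.16 FPKM (1.10, or 0.65 with 1 FPKM added), bgm fell from 2.93 to 1.26 FPKM (-1.22), and the elongase gene Baldspot fell from 196 to 138 FPKM (-0.50). The SREBP gene itself, HLH106, stood at 391 and 346 FPKM in the SIN3 comparison (-0.17) and at 395 and 363 FPKM in the double comparison (-0.12). The abundant synthase gene CG3523 stood at 806 and 979 FPKM in the SIN3 comparison (0.28), and neither it nor HLH106 was called in any table. The list had medians of 0.10 (SIN3), -0.06 (SAM-S) and -0.08 (double), and no member was called after SAM-S knockdown.

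Among 11 tested genes that supply phosphatidate and diacylglycerol, 2 fell in SIN3-labelled samples and none rose, beside 4.35% and 3.34% of all tested genes. Neither fall was called at q under 0.01. CG4753, of the acylglycerophosphate acyltransferase family, fell from 12.3 to 6.0 FPKM (-1.04) and the lipid phosphate phosphatase gene wun2 from 43.3 to 26.96 FPKM (-0.68). No member of this list was called in the other tables. Of 8 remodelling and breakdown genes, CG2818 rose from 15.9 to 27.9 FPKM (0.81) in SIN3-labelled samples, beside 3.34% of all tested genes called higher. The acyltransferase gene frj fell from 33.3 to 21.7 FPKM (-0.62) in double-labelled samples, beside 6.14% called lower. No other gene of that list was called in either comparison. Among the phosphoinositide genes, which act downstream of Pis, 1 of 19 rose and 1 fell in the SIN3 comparison, and 1 of 18 rose and 1 fell in the double comparison. Over all tested genes 3.34% were called higher and 4.35% lower in the former and 3.48% and 6.14% in the latter, so these counts lie near the background. The merged row of CG30184 and Pi3K59F, a phosphatidylinositol 3-kinase gene, rose from 16.4 to 30.04 FPKM (0.87) and from 16.6 to 28.3 FPKM (0.77). The phosphatidylinositol transfer protein gene rdgB fell from 11.9 to 7.34 FPKM (-0.70) and from 12.0 to 6.29 FPKM (-0.93). The remodelling and phosphoinositide lists had no call after SAM-S knockdown, where 0.163% of all tested genes were called.

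**Figure D4:**
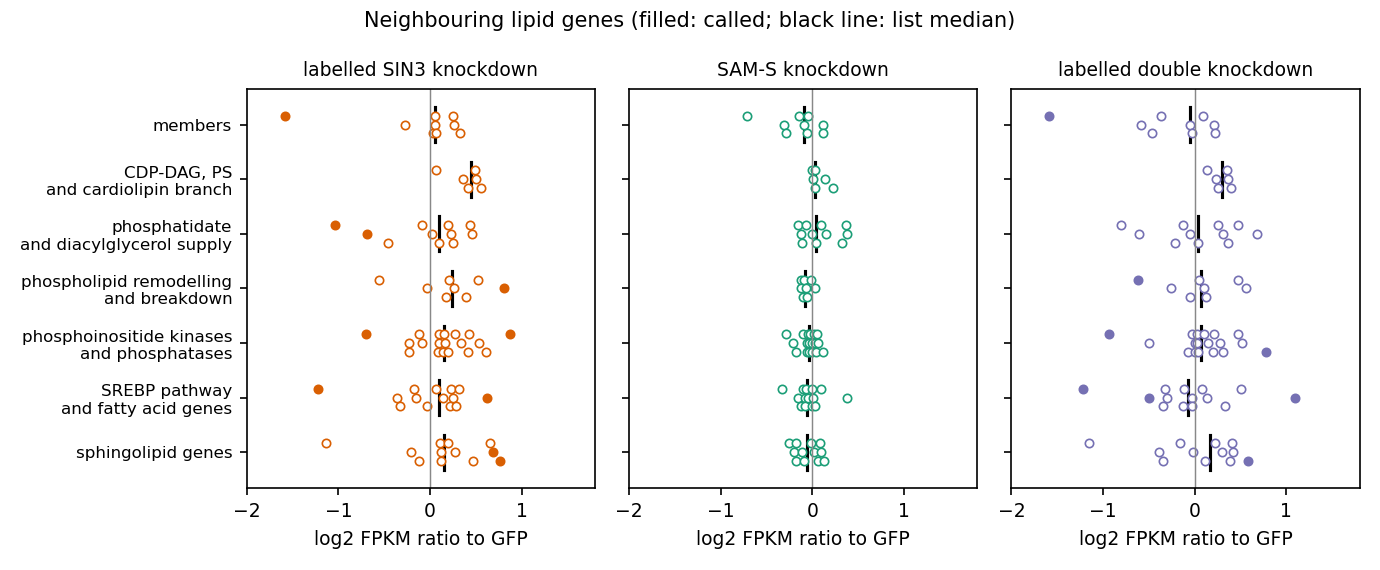
Log2 ratio to GFP of each tested gene (points; filled when called) in the 9 members and 6 surrounding lipid lists, per comparison, with a black line at each list's median. The lowest filled point in the SIN3 and double panels is eas, at -1.58 and -1.59, and no point is filled after SAM-S knockdown.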

How the data were processed

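RNA-seq was measured in S2 cells, and bcl2fastq, Cuffdiff and build dm3 are named in the submitters' processing notes without versions. The aligner, the annotation and the counting strand were not given in the sources used here; no read counts were analysed here, so depth is unknown and no counting interval is given. Per the file headers, the authors deposited for each gene row an FPKM in the GFP group and in the knockdown group, a test statistic (a score), and a p-value and q-value; per the labels, replicates 1, 2 and 3 were combined. It is not stated that the samples came from separate cultures beyond the design text calling them biological replicates.

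Each log2 ratio is that of the deposited FPKM values with no pseudocount, and coordinates are those of the files with 1 added to each start. Rows were joined by locus and symbol. The approximate SE is the log2 ratio over the statistic, divided by the median ratio of the normal quantile of p to the statistic (1.73 to 1.74). Differences between tables were tested with it, treating tables as independent, with Benjamini-Hochberg adjustment over all rows tested in both. The test was tried on simulated data with independent normal noise of these same SE. That simulation could not check the shared control or whether the SE measure the spread between samples. Current names, strands and overlaps are from the Ensembl annotation of BDGP6 and RefSeq Release 6, with no coordinates taken from them. Python 3.11.15, pandas 2.3.3 and scipy 1.17.1 were used.

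The members and lists were chosen with earlier results of these data known. All members are named, with up to 2 called genes per list, direction and table, the rows nearest to eas and the rows beside members; further list genes, and Pxn and Fas3 among the markers, were named after their values were seen. Of the listed genes, fab1 had no matching row, and CG9619 was dropped as it is not a phospholipid gene. A planned description of protein and promoter sequences was not run.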

Additional observations from a re-analysis of the deposited data

Results flagged for a closer look

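For eas, the log2 ratio to GFP in SIN3-labelled samples was below that after SAM-S knockdown by a difference of -1.29, which passed the approximate test of that difference. The double-labelled samples differed from the SAM-S group for eas by -1.29, which passed it too. The tables share their control, the standard errors come from pooled groups, and no exact test over samples could be run on pooled values.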

How the results depend on the processing

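The calls for eas (SIN3-labelled and double-labelled) stayed at q under 0.01, with p adjusted anew, a normal p or a 1 FPKM floor. So did the absence of a call after SAM-S knockdown. Adding 1 FPKM, centring and taking the control of another table changed only the log2 ratio and left the deposited q as it was. No change of call was possible under these settings, so they do not test it. The log2 ratio of eas ran from -1.60 to -1.49 in the SIN3 comparison and from -1.59 to -1.49 in the double comparison. A normal p from the statistic lowered the calls over all genes from 624 to 37 in the SIN3 table and from 785 to 55 in the double table. The log2 ratio of CG33116 in the double comparison changed sign to 0.00361 with the control of the SIN3 table. That control row holds CG33116 alone, whereas the double row is merged with CG31697, so unlike rows were compared. The difference for Cct1 between the double and SAM-S comparisons changed sign to -0.000486 after centring. Neither value had been called. The differences of eas from the SAM-S comparison kept their direction and passed under every alternative. Leaving out the variance of the shared control can only lower p, and adding 1 FPKM or centring kept the SE. These alternatives are therefore a weak check of the differences. That of Cct2 between the SIN3 and SAM-S comparisons, 0.96, passed only with the variance of the shared control left out. Of the 5 rows nearest to eas, 1 stayed with 1 FPKM added, and the cause was not tested. In the lists, 9 of 108 counts went to 0. At q under 0.01 this held for the 2 falls among phosphatidate genes, for 1 rise and 1 fall of the SREBP list and 1 fall of the phosphoinositide list in the SIN3 table, and for 2 falls of the SREBP list, 1 of the remodelling list and 1 rise of the sphingolipid list in the double table. Without merged rows it held for the phosphoinositide rise in each of these tables. No paired analysis was possible because the tables hold 1 pooled value per group, and leaving out a replicate was not run for the same reason.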
